A study of Mus musculus with 8 samples.

Results

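Axon guidance ligands and receptors were examined in striatal tissue of R6/2 mice, a model of Huntington's disease, and of wild-type animals. They were taken as all genes whose platform symbol begins with Sema, Plxna to Plxnd, Epha, Ephb, Efna, Efnb, Slit or Robo and a digit, together with Ntn1, Ntn4, Dcc, Unc5a to Unc5d, Nrp1 and Nrp2. The rule gave 67 of the 18193 genes with a named probe set. It took in 33 ligands, 33 receptors and Plxna4os1, an RNA antisense to Plxna4 that matched by its prefix and encodes neither. The symbols of all 67 genes were the current ones in RefSeq. No filter on low values was applied, so every one of the 67 entered the test.

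The study set 4 R6/2 mice against 4 wild-type mice, with total RNA of 1 striatum sample per mouse on 1 Affymetrix array. R6/2 is a transgenic line that expresses the first exon of human huntingtin with an expanded CAG repeat from the human gene's promoter, in addition to both mouse copies, so it models a fragment of the disease protein and not the full-length mutant gene. Wild-type mice carried no transgene. Mice of both groups were female, 12 weeks (85 days) old and of a C57Bl/6 / CBA strain, and no treatment is named in the labels. Wild-type mice had the numbers 42, 48, 54 and 63, R6/2 mice 64, 65, 70 and 78, and values by mouse are always given in this order. A further wild-type mouse mentioned in the design text was not analysed here.

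Guidance molecules steer growing axons by attraction or repulsion, and many stay on in the adult brain, where they act on dendritic spines, synapses and blood vessels. Semaphorins signal through plexins. The secreted class 3 proteins mostly need a neuropilin as co-receptor, while the membrane-bound classes bind plexins directly. Ephrins and Eph receptor tyrosine kinases signal between touching cells in both directions, Slits act through Robo receptors, and netrins act through Dcc and the Unc5 family. In the striatum this system is known for the layout of cortical, thalamic and dopaminergic inputs and of the projections of medium spiny neurons.

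Values are log2 levels per probe set, and a difference is R6/2 minus wild-type on that scale. A gene was said to have risen or fallen at an adjusted p under 0.05 with limma, adjusted over all genes. Markers of medium spiny neurons were bright in all 8 mice, with a mean level of 10.83 to 11.17 in wild-type and 10.03 to 10.10 in R6/2 mice, and all 10 measured markers fell. For comparison, 6.19% of all genes fell and 9.09% rose. Cortical projection neuron markers averaged 7.18 to 7.95 in wild-type and 6.63 to 7.54 in R6/2 mice, and 2 of 10 fell (Rasgrf2 and Slc30a3). All 10 cortical differences were negative, with a median of -0.64. Ependymal and choroid plexus markers ranged from 6.00 to 7.61 and from 6.04 to 7.98. Of these 10 markers 1 rose (Enkur) and 1 fell (Ccdc153), and 9 differences were positive, with a median of 0.79. Vascular markers ranged from 7.11 to 7.25 and from 6.86 to 7.001, and 3 of 10 fell (Cldn5, Flt1 and Slco1a4). Astrocyte markers averaged 9.64 to 10.01 and 9.47 to 9.62, with 4 of 10 lower (Slc1a3, Aldoc, Ntsr2 and Slc1a2). Interneuron markers averaged 6.70 to 7.29 and 6.36 to 6.71, with 4 of 10 lower (Npy, Nos1, Sst and Vip) and all 10 differences negative. Array medians lay between 5.08 and 5.13, and probe sets of Y-linked genes, which female mice lack, gave a measure of background. It depends on the genes taken: 9 probe sets of Ddx3y, Eif2s3y, Kdm5d and Uty read 2.77 to 3.67, while 13 probe sets that also cover Zfy1, Zfy2, Sry and Usp9y reached 5.37. The members' mean levels ran from 3.55 (Plxna4os1) to 9.68 (Sema3f, whose other probe sets lay at 5.74 and 5.71). Of the 67 members, 41 lay above the median gene. By the first measure Plxna4os1 alone lay at background, and by the second 15 members did, 3 of them called (Epha8, Robo3 and Sema3d). In RNA from whole tissue, fewer cells of a type and less RNA per cell cannot be told apart.

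In R6/2 striatum 12 of the 67 guidance genes fell and 5 rose, and for 50 the test was not passed. The deepest fall was that of Sema7a, a membrane-anchored semaphorin that signals through Plxnc1 and integrins, at 2.00-fold. Plxnd1, the receptor of Sema3e, fell 1.78-fold, and the ephrin gene Efna3 fell 1.60-fold. The rises were led by Sema3a, a secreted repellent of axons, at 1.72-fold, and the other class 3 genes that rose were Sema3d and Sema3e. Sema4d and Plxnb3 made up the rest of the rises.

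Over all 18193 genes, 15.3% passed the test, 9.09% as higher and 6.19% as lower in R6/2 mice. Among the guidance genes the shares were 25.4%, 7.46% and 17.9%. The share of rises was close to that of all genes, and the difference in the share of falls was not tested. The median difference was -0.082 over the guidance genes and -0.0034 over all genes. The values of the groups did not overlap for 16 guidance genes, against 19.4% of all genes. Differences were modest: 6 members reached a fold of 1.5 (Sema7a, Plxnd1, Robo3, Sema3a, Efna3 and Nrp2), and the 50 that did not pass lay between -0.52 and 0.51. Of 33 ligands 5 fell and 4 rose, and of 33 receptors 7 fell and 1 rose. Most genes had further, dimmer probe sets. Of all 150 probe sets of the guidance genes 29 passed when adjusted over probe sets, against 10.1% of all probe sets. The called genes had 22 further probe sets, of which 18 had the sign of the brightest one, 8 of these passing, and 4 the opposite sign without passing (in Sema3d, Sema4d and Sema6d).

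**Figure D1:**
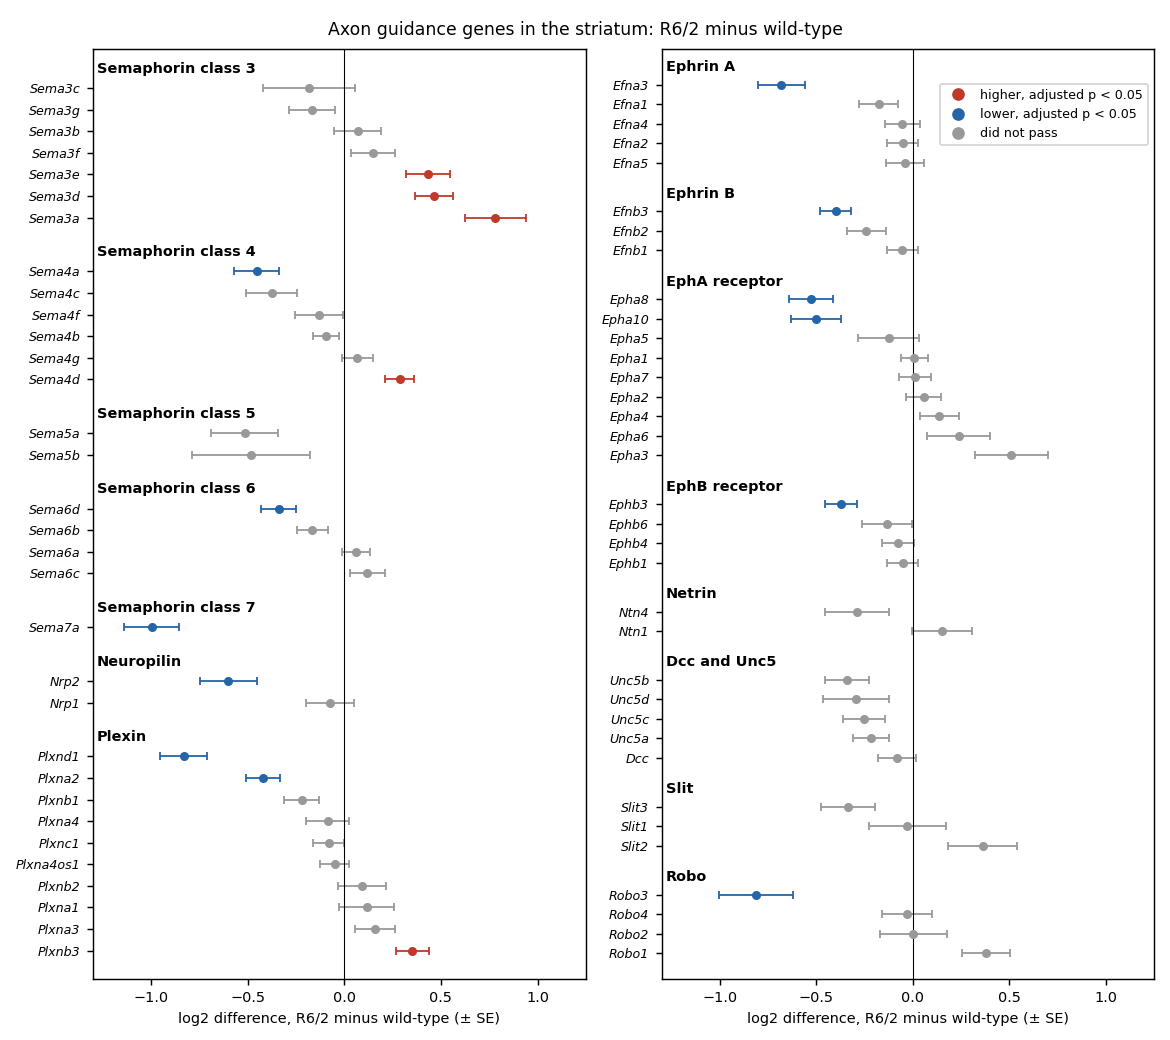
Difference in log2 level (R6/2 minus wild-type, bars are moderated standard errors, n = 4 mice per group) of all 67 guidance genes, grouped by family. Red points rose and blue points fell at an adjusted p under 0.05, and grey points did not pass; Sema7a lies farthest to the left at -0.997 and Sema3a farthest to the right at 0.78.

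**Figure D2:**
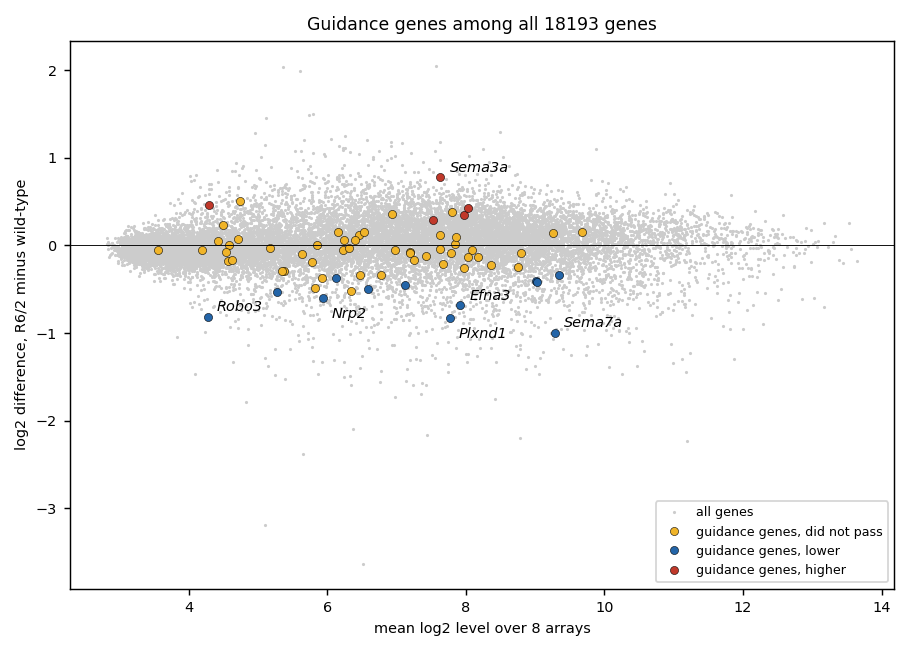
Mean log2 level over the 8 arrays (x) against the log2 difference R6/2 minus wild-type (y) for all 18193 genes in grey and the guidance genes in colour. Guidance genes lay between 3.55 and 9.68 in level, and the labelled genes are the 6 with a fold of at least 1.5.

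Promoters are printed for the members that moved most on either side and for the other class 3 genes that rose. RefSeq windows (build GRCm38.p6) were held for 56 of the 67 members, 72 windows in all, so some members had more than 1. Each window shown is the first one listed for its gene. It holds the 250 bases before an annotated start, 5′ to 3′ on the gene's strand. Sema3a is chr5:13396534-13396783, plus strand, Sema3d is chr5:12382916-12383165, plus strand, and Sema3e is chr5:14025026-14025275, plus strand. Sema7a is chr9:57939862-57940111, plus strand, and Plxnd1 is chr6:115995006-115995255, minus strand. Capitals mark matches to the motifs searched on both strands, which were the GC box GGGCGG, the cyclic AMP response element TGACGTCA, the TATA box TATAAA and the EGR site GCGTGGGCG, whose last letters can overlap a GC box.
Sema3a: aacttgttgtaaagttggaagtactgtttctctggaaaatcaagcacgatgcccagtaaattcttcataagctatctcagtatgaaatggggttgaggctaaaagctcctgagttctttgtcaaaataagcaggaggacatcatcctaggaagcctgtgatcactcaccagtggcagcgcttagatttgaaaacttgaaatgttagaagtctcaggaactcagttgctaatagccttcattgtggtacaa
Sema3d: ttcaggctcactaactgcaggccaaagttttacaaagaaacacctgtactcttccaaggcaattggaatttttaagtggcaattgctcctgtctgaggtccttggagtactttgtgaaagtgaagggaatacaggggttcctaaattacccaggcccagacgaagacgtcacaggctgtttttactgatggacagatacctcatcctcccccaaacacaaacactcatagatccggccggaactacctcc
Sema3e: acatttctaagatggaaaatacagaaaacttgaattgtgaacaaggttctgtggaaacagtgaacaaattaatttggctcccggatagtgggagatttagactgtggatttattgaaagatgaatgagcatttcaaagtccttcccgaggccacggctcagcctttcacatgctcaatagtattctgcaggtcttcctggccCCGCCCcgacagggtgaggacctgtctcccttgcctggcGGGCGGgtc
Sema7a: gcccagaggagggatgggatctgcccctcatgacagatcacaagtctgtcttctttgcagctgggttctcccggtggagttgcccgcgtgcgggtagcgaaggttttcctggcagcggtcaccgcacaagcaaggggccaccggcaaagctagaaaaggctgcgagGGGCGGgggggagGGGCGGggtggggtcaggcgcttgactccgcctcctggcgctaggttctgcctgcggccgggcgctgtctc
Plxnd1: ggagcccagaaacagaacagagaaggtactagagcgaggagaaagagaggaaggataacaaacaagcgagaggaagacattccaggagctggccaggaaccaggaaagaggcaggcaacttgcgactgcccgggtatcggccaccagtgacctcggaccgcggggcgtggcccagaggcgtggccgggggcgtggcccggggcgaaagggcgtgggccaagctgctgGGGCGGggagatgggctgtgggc
The windows shown of Sema3e and Sema7a each held 2 GC boxes and that of Plxnd1 held 1. Those of Sema3a and Sema3d held none of the motifs searched. The windows differed in base composition, with 40.8% G and C in Sema3a, 46.8% in Sema3d and 48% in Sema3e, against 66.4% in Sema7a and 64.8% in Plxnd1. A GC box stood in 32.7% of all 32851 windows of this length, in 48.3% of the windows of tested genes and in 52 of the 72 windows of guidance genes. The TATA box stood in 12.4% of all windows, the cyclic AMP response element in 1.55% and the EGR site in 0.536%. These are matches of letters, and no binding was measured.

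Class 3 semaphorins are secreted proteins, most of them repellents. Of 7 measured genes, 3 rose, none fell and 4 did not pass with limma, while 9.09% of all genes rose and 6.19% fell. An unadjusted limma p under 0.05 was found for 3 of the 7, against 29.6% of all genes. Sema3a read 7.28, 7.10, 6.97 and 7.61 in wild-type and 8.13, 7.80, 7.80 and 8.36 in R6/2 mice. All R6/2 mice lay above all wild-type mice, and the mean rose from 7.24 ± 0.28 to 8.02 ± 0.27 (SD, n = 4 each), a difference of 0.78 ± 0.16 (SE, adjusted p = 0.00927). Its 2 other probe sets, dim at 3.99 and 3.54, had differences of 0.35 (adjusted p = 0.0562) and 0.28 (adjusted p = 0.0844) over all probe sets.

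Sema3d, which guides cardiovascular and neural crest cells, read 4.14, 3.91, 4.04 and 4.18 in wild-type and 4.33, 4.55, 4.49 and 4.74 in R6/2 mice. It was dim, with all 8 values within the wider of the Y-linked ranges. The groups did not overlap, and Sema3d rose by 0.46 ± 0.099 (adjusted p = 0.0118). Another probe set, at a mean level of 3.83, differed by -0.10 ± 0.082 (adjusted p = 0.483), and with the mean of both probe sets the difference was 0.18 (adjusted p = 0.0672). Sema3e, the ligand of Plxnd1 that acts without a neuropilin, read 7.99, 7.69, 7.93 and 7.62 in wild-type and 8.49, 8.21, 8.08 and 8.18 in R6/2 mice. The groups lay close to each other without overlap, and the rise was 0.43 ± 0.11 (adjusted p = 0.0282). That call was lost on leaving out mouse 48 or 63 of the wild-type group or 64, 65 or 78 of the R6/2 group, with adjusted p from 0.0521 to 0.0820. Of its 3 other probe sets, 1 rose by 0.33 (adjusted p = 0.0492), and the others differed by 0.12 each (adjusted p = 0.437 and 0.418).

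The 3 class 3 genes that rose all lie on chromosome 5. Sema3d, Sema3a and Sema3e are genes 1, 7 and 17 of a stretch of 17 RefSeq genes, so other genes lie between them. Only 5 genes of that stretch had a named probe set. The other measured genes there, 4930568A13Rik and Speer3, differed by 0.047 ± 0.069 (adjusted p = 0.703) and 0.039 ± 0.13 (adjusted p = 0.872), at mean levels of 2.97 and 4.34; they were picked for their position. Sema3c, also on chromosome 5, differed by -0.18 ± 0.24 (adjusted p = 0.658) and varied widely, from 5.39 to 6.40 among wild-type and from 5.18 to 6.03 among R6/2 mice. The brightest member of the class was Sema3f, a repellent that acts through Nrp2, which read 9.52, 9.66, 9.53 and 9.70 against 9.50, 10.07, 9.76 and 9.68 (difference 0.15 ± 0.11, adjusted p = 0.419). That level of Sema3f came from a probe set with an ID ending in _x_at. Its other probe sets had mean levels of 5.74 and 5.71 and differed by -0.066 and -0.0079 (adjusted p = 0.683 and 0.979). Sema3b and Sema3g were dim and differed by 0.069 and -0.17.

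Semaphorins of classes 4 to 7 are tied to the membrane. Of these 13 genes 3 fell, 1 rose and 9 did not pass, while 6.19% of all genes fell and 9.09% rose. Sema7a read 10.16, 9.82, 9.56 and 9.60 in wild-type and 9.03, 8.68, 8.57 and 8.88 in R6/2 mice. All wild-type mice lay above all R6/2 mice, and the mean fell from 9.79 ± 0.27 to 8.79 ± 0.20 (SD, n = 4 each), a difference of -0.997 ± 0.14 (SE, adjusted p = 0.00159). Its other probe set was dim (4.57) and gave -0.43 ± 0.14 (adjusted p = 0.0799).

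Sema6d, a plexin A ligand and the brightest class 6 gene, read 9.61, 9.33, 9.51 and 9.60 against 9.12, 9.06, 9.17 and 9.34. Wild-type mouse 48 and R6/2 mouse 78 crossed in the middle, and the fall was 0.34 ± 0.091 (adjusted p = 0.0306). Leaving out any of 6 arrays (wild-type mouse 42, 54 or 63, R6/2 mouse 64, 65 or 70) ended the call, with adjusted p from 0.0612 to 0.0778. Among the 3 other probe sets of Sema6d, all dim at 3.79 to 4.68, 1 fell by 0.33 (adjusted p = 0.0349) and the others had the opposite sign at 0.10 and 0.16 (adjusted p = 0.683 and 0.470). With the mean of its probe sets Sema6d differed by -0.10 (adjusted p = 0.344) and was no longer called.

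Sema4a, known from immune cells and the retina, read 7.61, 7.44, 7.03 and 7.33 in wild-type and 6.88, 7.02, 6.93 and 6.77 in R6/2 mice. The groups all but touched at 7.03 and 7.02, and the fall was 0.45 ± 0.12 (adjusted p = 0.0265). Its other probe set fell by 0.53 ± 0.12 (adjusted p = 0.0187). For the brighter one the call was lost on leaving out mouse 42 or 48 of the wild-type group or 64, 70 or 78 of the R6/2 group, with adjusted p from 0.0519 to 0.0755.

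Sema4d, the ligand of Plxnb1 and a gene of oligodendrocytes and lymphocytes, read 7.33, 7.32, 7.36 and 7.53 against 7.64, 7.66, 7.62 and 7.78. Every R6/2 value lay above every wild-type value by a small margin, and the rise was 0.29 ± 0.076 (adjusted p = 0.0296). The call was kept without wild-type mouse 63 and lost without any of the 7 other arrays (wild-type mouse 42, 48 or 54, or any R6/2 mouse; adjusted p from 0.0525 to 0.0850). Another probe set of Sema4d, at a mean level of 7.02, differed by -0.13 ± 0.11 (adjusted p = 0.528), and with the mean of all its probe sets the difference was 0.12 (adjusted p = 0.377). Beside it, the mean level of oligodendrocyte markers was 10.10 to 10.57 in wild-type and 10.03 to 10.22 in R6/2 mice, with 1 of 9 lower (Mobp). Their part in the rise was not tested.

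The other members of these classes did not pass. Sema4f differed by -0.13 ± 0.12 (adjusted p = 0.533) and Sema6c by 0.12 ± 0.090 (adjusted p = 0.416). Sema5a and Sema5b, whose extracellular parts carry thrombospondin repeats, had larger differences with wide spread. Sema5a read 6.58, 6.35, 6.45 and 7.03 against 6.44, 5.69, 6.04 and 6.18 (difference -0.52 ± 0.17, adjusted p = 0.0711). Without R6/2 mouse 64 that difference passed, at -0.63 (adjusted p = 0.0442). Sema5b ranged from 5.21 to 7.11 among wild-type and from 5.50 to 5.76 among R6/2 mice (difference -0.48 ± 0.31, adjusted p = 0.329). A dimmer probe set of Sema5b fell by 0.69 ± 0.13 (adjusted p = 0.0112).

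Neuropilins are the co-receptors of secreted semaphorins. Nrp2 read 5.97, 6.08, 6.31 and 6.59 in wild-type and 5.86, 5.43, 5.46 and 5.80 in R6/2 mice. It fell by 0.60 ± 0.15 (adjusted p = 0.0210), with wild-type mouse 42 and R6/2 mouse 64 close together at 5.97 and 5.86. A dimmer probe set fell by 0.54 (adjusted p = 0.0280), and 2 more differed by -0.56 (adjusted p = 0.0539) and -0.17 (adjusted p = 0.290). The call on the brightest was lost on leaving out mouse 54, 65 or 70 (adjusted p from 0.0502 to 0.0659). Nrp1, the co-receptor used by Sema3a, was brighter and overlapped fully, at 7.58, 7.28, 7.10 and 6.96 against 7.01, 7.23, 7.23 and 7.16 (difference -0.074 ± 0.12, adjusted p = 0.741). The dimmest of its probe sets (mean level 5.53) fell by 0.58 ± 0.13 (adjusted p = 0.0239).

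Plexins are the signalling receptors of semaphorins. Of 9 plexin receptor genes 2 fell and 1 rose, leaving 6 that did not pass, while 6.19% of all genes fell and 9.09% rose. Plxnd1, best known from blood vessels and from the synapses of thalamic inputs on striatal neurons, read 8.24, 8.14, 8.35 and 7.999 in wild-type and 7.09, 7.35, 7.66 and 7.31 in R6/2 mice. The groups were well apart, and the mean fell from 8.18 ± 0.15 to 7.35 ± 0.23 (SD, n = 4 each), a difference of -0.83 ± 0.12 (SE, adjusted p = 0.00183). Among vascular markers 3 of 10 fell, and the median difference of the list was -0.12. All 10 markers of medium spiny neurons fell, with a median difference of -0.94. The part of either cell type in the fall of Plxnd1 was not tested.

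Plxna2, a receptor for class 6 and, with neuropilins, for class 3 semaphorins, was the brightest plexin. It read 9.19, 9.20, 9.39 and 9.17 against 8.88, 8.67, 8.97 and 8.74, without overlap, and fell by 0.42 ± 0.088 (adjusted p = 0.0104). Its 3 other probe sets differed by -0.36, -0.45 and -0.39 (adjusted p = 0.0361, 0.0145 and 0.0502). Plxnb3, a receptor for Sema5a found mostly in the oligodendrocyte lineage, read 7.73, 7.75, 7.78 and 7.92 against 8.02, 8.24, 8.05 and 8.28. All R6/2 values were higher, and the rise was 0.35 ± 0.084 (adjusted p = 0.0190). The other probe set of Plxnb3 rose by 0.54 ± 0.086 (adjusted p = 0.00493). Without wild-type mouse 48 or R6/2 mouse 78 the call on the brighter one was lost (adjusted p = 0.0579 and 0.0552). Markers of oligodendrocyte progenitors averaged 6.98 to 7.06 in wild-type and 6.91 to 7.06 in R6/2 mice, and 1 of 9 rose (Lhfpl3). Their part in the rise of Plxnb3 was not tested.

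Plxnb1, the receptor of Sema4d, read 8.26, 8.53, 8.45 and 8.63 against 8.20, 8.17, 8.33 and 8.30 (difference -0.22 ± 0.089, adjusted p = 0.125). It passed without wild-type mouse 42, at -0.29 (adjusted p = 0.0398). Plxnc1, the receptor of Sema7a, differed by -0.082 ± 0.080 (adjusted p = 0.548). Plxna1, Plxna3, Plxna4, Plxnb2 and the antisense gene Plxna4os1 lay between -0.085 and 0.16 and did not pass. A dimmer probe set of Plxna3, at a mean level of 5.80, rose by 0.41 ± 0.12 (adjusted p = 0.0495). With the mean of its probe sets Plxna3 was called.

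**Figure D3:**
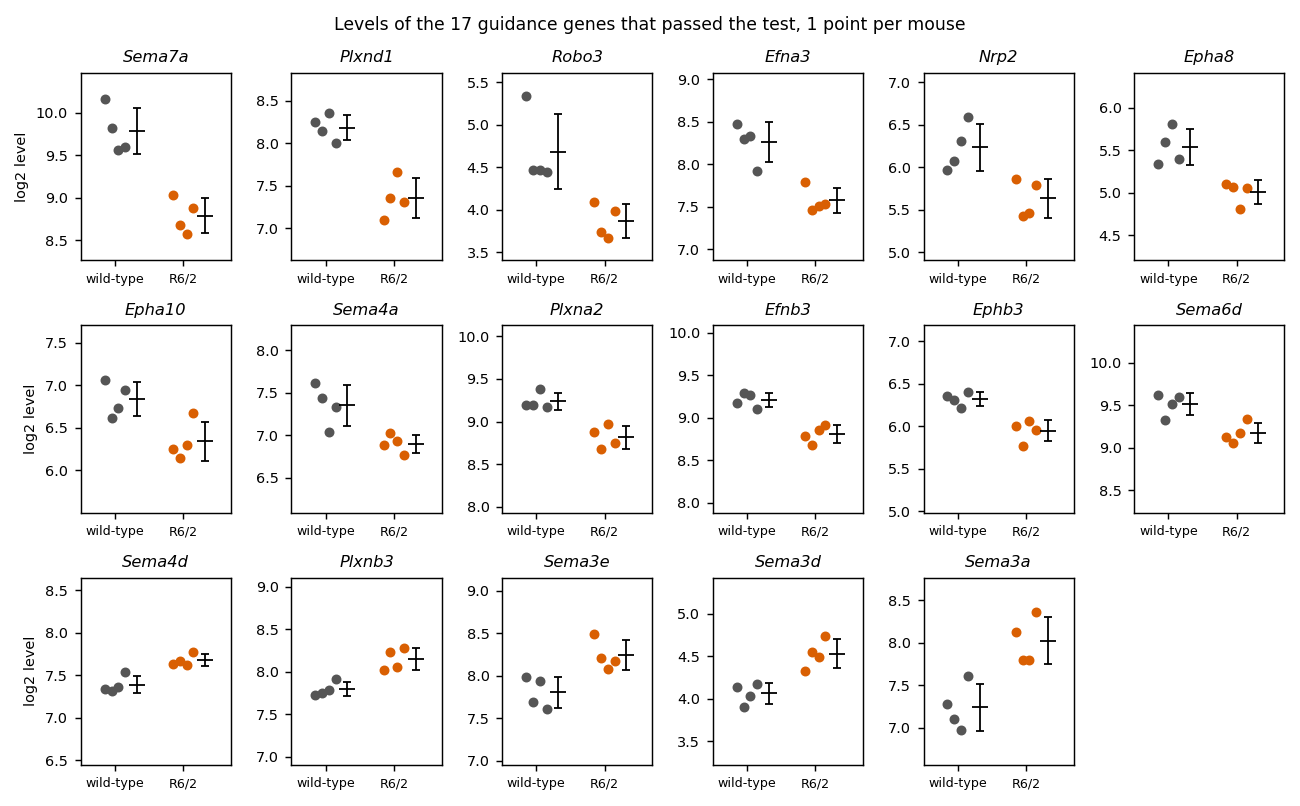
Log2 level in each mouse (1 point per mouse, grey for wild-type and orange for R6/2, with the mean and SD beside the points, n = 4 each) of the 17 guidance genes that passed the test, ordered from the largest fall (Sema7a) to the largest rise (Sema3a). Every panel spans the same height; the groups do not overlap in 15 of the 17 panels, the exceptions being Epha10 and Sema6d.

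Ephrins are membrane-bound ligands, the A type held by a lipid anchor and the B type by a transmembrane segment. All 8 measured ephrin genes had a lower mean in R6/2 mice, the smallest difference being -0.040, and 2 passed. Of all 18193 genes, 9231 had a negative difference and 6.19% passed as lower. A dimmer probe set each of Efna5, Efnb1 and Efnb2 had a positive difference (0.13, 0.11 and 0.039) without passing. The remaining ephrin probe sets were negative. Efna3 read 8.48, 8.30, 8.33 and 7.92 in wild-type and 7.80, 7.46, 7.51 and 7.54 in R6/2 mice. The groups did not overlap, although wild-type mouse 63 came near R6/2 mouse 64, and the fall was 0.68 ± 0.12 (adjusted p = 0.00488). Its dimmer probe set fell further, by 1.21 ± 0.12 (adjusted p = 0.000615).

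Efnb3, an ephrin B of neurons that acts at synapses and at the midline, read 9.18, 9.29, 9.27 and 9.10 against 8.79, 8.68, 8.86 and 8.91. It varied little within a group, did not overlap between groups, and fell by 0.40 ± 0.078 (adjusted p = 0.00769). Efnb2, an ephrin of arteries and neurons, read 8.71, 8.96, 9.02 and 8.79 against 8.63, 8.63, 8.82 and 8.44 (difference -0.24 ± 0.10, adjusted p = 0.140). Efna5, a guidance cue for corticothalamic and retinal axons, differed by -0.040 ± 0.10 (adjusted p = 0.830), and its sign turned under several settings. Efna1, Efna2, Efna4 and Efnb1 differed by -0.18 to -0.053.

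Eph receptors are the tyrosine kinases that ephrins activate. Of 13 measured genes 3 fell, none rose and 10 did not pass with limma, while 6.19% of all genes fell and 9.09% rose. An unadjusted limma p under 0.05 was found for 4 of the 13, against 29.6% of all genes. Epha8 read 5.34, 5.60, 5.81 and 5.40 in wild-type and 5.097, 5.07, 4.80 and 5.06 in R6/2 mice, without overlap, and fell by 0.53 ± 0.11 (adjusted p = 0.0116). Epha10, a family member whose kinase domain is thought to be inactive, read 7.06, 6.62, 6.73 and 6.94 against 6.25, 6.14, 6.29 and 6.67. R6/2 mouse 78 lay just above wild-type mouse 48, and the fall was 0.50 ± 0.13 (adjusted p = 0.0275). The Epha10 call was lost on leaving out mouse 42 or 63 of the wild-type group or 64, 65 or 70 of the R6/2 group (adjusted p from 0.0611 to 0.0731). Ephb3, a receptor of B-type ephrins, read 6.35, 6.31, 6.21 and 6.40 against 6.00, 5.77, 6.06 and 5.96, and fell by 0.37 ± 0.082 (adjusted p = 0.0137).

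The brightest Eph receptors did not pass. Epha4, which binds ephrins of both types and acts in spines and in spinal circuits, read 9.24, 9.23, 9.21 and 9.08 against 9.24, 9.63, 9.18 and 9.26 (difference 0.14 ± 0.10, adjusted p = 0.415). Its 4 other probe sets disagreed, at -0.26, 0.38, -0.20 and -0.58, of which the last and dimmest passed (adjusted p = 0.0221). Epha7 differed by 0.013 ± 0.082 (adjusted p = 0.939), and its sign turned under several settings. Ephb1, which takes part in crossing decisions of retinal axons, differed by -0.052 ± 0.080 (adjusted p = 0.714), and Ephb6, whose kinase domain is inactive, by -0.14 ± 0.13 (adjusted p = 0.538). Epha3 was dim, at 4.65, 4.53, 4.26 and 4.48 in wild-type and a scattered 5.49, 4.99, 5.07 and 4.40 in R6/2 mice (difference 0.51 ± 0.19, adjusted p = 0.0998). It passed without R6/2 mouse 78. The remaining genes, Epha1, Epha2, Epha5, Epha6 and Ephb4, lay between -0.13 and 0.24.

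Slits are secreted repellents and Robo proteins their receptors. Of these 7 genes only Robo3 passed the test, against 15.3% of all genes. Robo3, which in the embryo lets commissural axons cross the midline, read 5.34, 4.47, 4.46 and 4.45 in wild-type and 4.09, 3.74, 3.67 and 3.98 in R6/2 mice. It fell by 0.81 ± 0.19 (adjusted p = 0.0179), but wild-type mouse 42 stood far above the other wild-type mice, and all 8 values lay within the wider of the Y-linked ranges. The call was lost without R6/2 mouse 65 or 70 (adjusted p = 0.0508 and 0.0576), and the dimmer probe set differed by -0.21 ± 0.11 (adjusted p = 0.285).

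Robo1, the brightest of the receptors, read 7.75, 7.54, 7.83 and 7.34 against 7.82, 8.18, 7.82 and 8.13 (difference 0.38 ± 0.13, adjusted p = 0.0684). It passed without wild-type mouse 54, at 0.45 (adjusted p = 0.0498). Robo2 differed by 0.0031 ± 0.17 (adjusted p = 0.993), with a sign that turned under several settings, and Robo4, the vascular member, by -0.031. Slit2 read 6.94, 6.61, 6.23 and 7.21 against 7.04, 7.32, 7.12 and 6.97 (difference 0.36 ± 0.18, adjusted p = 0.209). Slit3 read 6.97, 6.61, 6.77 and 6.21 against 6.43, 6.22, 6.31 and 6.25 (difference -0.33 ± 0.14, adjusted p = 0.138), and passed without wild-type mouse 63 at -0.48 (adjusted p = 0.0134). Slit1 differed by -0.028 ± 0.20 (adjusted p = 0.945).

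None of the 7 genes of the netrin system passed with limma over all arrays, against 15.3% of all genes. An unadjusted limma p under 0.05 was found for 3 of them (Unc5a, Unc5b and Unc5c), against 29.6% of all genes. Dcc, the receptor through which netrin attracts axons, was the brightest, at 8.87, 8.89, 9.01 and 8.56 against 8.76, 8.65, 8.85 and 8.73 (difference -0.082 ± 0.10, adjusted p = 0.632). The 4 Unc5 receptors, which turn the response to netrin into repulsion, all had lower means in R6/2 mice, by 0.22 to 0.34. Unc5c read 8.27, 8.17, 7.96 and 8.002 against 8.07, 7.63, 7.75 and 7.93 (difference -0.25 ± 0.11, adjusted p = 0.148). Unc5b did not overlap between groups, at 6.86, 6.84, 6.93 and 7.15 against 6.50, 6.75, 6.37 and 6.80, and missed the threshold (difference -0.34 ± 0.11, adjusted p = 0.0664). Netrin-1, the product of Ntn1, is the classical attractant; Ntn1 differed by 0.15 ± 0.16 (adjusted p = 0.570). Ntn4, a netrin of basement membranes, differed by -0.29 ± 0.16 (adjusted p = 0.275) and passed without wild-type mouse 54, at -0.45 (adjusted p = 0.0452).

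Among known partners that both passed the test, Sema3e rose by 0.43 while its receptor Plxnd1 fell by 0.83. Sema6d, a plexin A ligand, and Plxna2, a receptor for class 6, fell by 0.34 and 0.42, and both passed. Sema6d and Plxna2 are set side by side by family only, and are not put forward as a known ligand and receptor pair. Each of the next pairs holds a gene that did not pass. For Sema3a and its co-receptor Nrp1 the differences were 0.78 and -0.074, and with the mean of its probe sets Nrp1 stood at -0.30 (adjusted p = 0.0958). For Sema3f, which did not pass, and Nrp2 they were 0.15 and -0.60. Sema7a fell by 0.997 and Plxnc1 differed by -0.082, while Sema4d rose by 0.29 and Plxnb1 differed by -0.22. Sema5a, which did not pass, differed by -0.52, and its receptor Plxnb3 rose by 0.35. Among the ephrins, Efnb3 and the receptor gene Ephb3 both passed and fell by 0.40 and 0.37. The A-type ephrin and receptor genes that passed, Efna3, Epha8 and Epha10, fell by 0.68, 0.53 and 0.50. The difference between partners was not tested.

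Cortical projection neuron markers were lower in R6/2 mice on average, with all 10 differences negative and 2 passing, so the covariate itself differs between the groups (mean difference -0.66). The guidance calls were recomputed with their mean on each array as a covariate. Of the 17 calls 4 were kept, those of Sema7a (-0.77 ± 0.18, adjusted p = 0.0407), Plxnd1 (-0.99 ± 0.17, adjusted p = 0.0131), Epha8 (-0.70 ± 0.15, adjusted p = 0.0283) and Sema3a (0.99 ± 0.22, adjusted p = 0.0321). Epha3 was called in addition. Standard errors grew for all 17 genes, and none of the 17 changed sign. Estimates stayed near the earlier ones for Efnb3 (-0.42, adjusted p = 0.0650), Plxna2 (-0.40, adjusted p = 0.102) and Efna3 (-0.59, adjusted p = 0.0828), and for Sema3e (0.49, adjusted p = 0.117). They shrank for Sema4a (-0.30, adjusted p = 0.316), Ephb3 (-0.23, adjusted p = 0.235), Robo3 (-0.55, adjusted p = 0.253) and Plxnb3 (0.25, adjusted p = 0.241). Over all genes the calls dropped from 2781 to 1039.

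**Figure D4:**
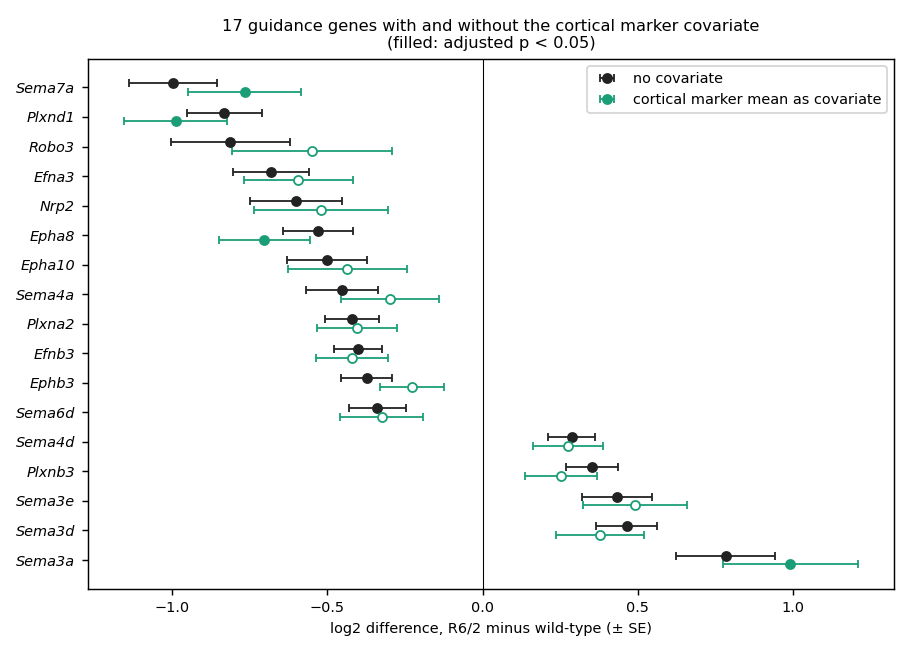
Log2 difference R6/2 minus wild-type with its standard error for the 17 guidance genes that passed, without a covariate (black) and with the per-array mean of cortical markers as covariate (green). Filled points passed an adjusted p of 0.05; with the covariate the filled points are Sema7a, Plxnd1, Epha8 and Sema3a, and all green points keep the side of 0 on which the black ones lie.

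Further genes of the pathway were taken from fixed lists of partner molecules and of intracellular effectors. Of 39 partner genes (adhesion molecules, proteoglycans and related ligands and receptors) 6 fell, 2 rose and 31 did not pass, with a median difference of -0.19. The shares were 20.5% called, 5.13% higher and 15.4% lower, against 15.3%, 9.09% and 6.19% of all genes. The difference in shares was not tested. Cxcl12, a chemokine that guides migrating neurons, fell by 0.77 ± 0.11 (adjusted p = 0.00198). Flrt1, a ligand of Unc5 receptors and latrophilins, fell by 0.52, Lingo1, part of the Nogo receptor complex, by 0.50, Ntng2, a membrane-anchored netrin relative, by 0.40, and Lrrc4, its synaptic partner, by 0.37. Cntn6, a contactin, rose by 0.58 ± 0.10 (adjusted p = 0.00425). The remaining calls, named after their values were seen, were Rtn4rl2, a Nogo receptor homologue, at -0.79 (adjusted p = 0.0417), and Rgmb, a repulsive guidance molecule, at 0.30 (adjusted p = 0.0440).

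Of 71 listed effectors 66 were measured, and 11 rose, 7 fell and 48 did not pass, with a median of 0.027. Here 27.3% of genes passed in either direction, against 15.3% of all genes. Kalrn and Ngef, guanine nucleotide exchange factors that act downstream of Eph receptors, fell by 1.02 and 0.64. The rises included the GTPase gene Cdc42 (0.51), its relative Rnd1 (0.37), which binds plexins, the kinase gene Rock1 (0.42) and Ssh1 (0.48), a phosphatase that activates cofilin. These 6 were the effectors with the smallest adjusted p, which ranged from 0.000498 to 0.00927. Effectors called higher numbered 5 without wild-type mouse 48. Calls among partners and effectors together numbered 13 without wild-type mouse 48 and 15 without R6/2 mouse 70, against 26 with all arrays.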

How the data were processed

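Biotin-labelled total RNA of each mouse was hybridised to an array of its own, as the labels' protocols state. The deposited table holds log2 levels that the authors obtained by RMA with the affy software, per the submitters' processing notes. Neither versions nor the set of arrays normalized as one are given in the sources used here. RMA compresses differences of dim genes. In 41.3% of probe sets a value was repeated exactly on another array, including 11 members, 1 of them called (Sema3a); Ephb4 had the same value on all 4 R6/2 arrays. Repeated values lower the spread within a group.

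Of 45101 probe sets 64 controls were left out; 34945 had 1 gene symbol in the platform annotation, 932 several and 9160 none. Each of 18193 genes was represented by its brightest single-gene probe set. The comparison used limma 3.58.1 in R 4.3.3 (lmFit, eBayes), with Benjamini-Hochberg adjustment over all genes, or over 45037 probe sets where other probe sets are given. Errors are moderated standard errors. Each mouse has its own number, so p-values reflect spread between animals, and 4 per group limit the precision. Simulated data were 3 runs of 18193 genes with independent noise, in each of which 200 genes were changed. Of changes of 0.5 (log2, R6/2 minus wild-type) 63.3% were called, with 94.7% of 1 and 99.3% of 2. Among the genes called, 3.27% had not been changed. In the mice 2781 genes were called, so the simulated setting differs and these shares need not carry over.

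Members and lists were chosen with earlier results of these data known. The naming rule took all called members, the 2 brightest of each family and up to 6 called genes of each pathway list. Other names, the motifs and promoters shown, and the narrower of the Y-linked gene sets were chosen after values were seen. Alternatives were other probe set choices, quantile normalization, median centring, a filter on dim genes, an intensity trend, array weights, unmoderated tests, 2 marker covariates and leaving out each array; applying them to probe set calls was a later addition, chosen after seeing the data. Symbols were checked by Entrez ID against RefSeq genes of GRCm38.p6.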

Additional observations from a re-analysis of the deposited data

Results flagged for a closer look

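Single mice stood apart from the other 3 of their group, by a gap that took up most of the group's range (past the 95% value of Dixon's test), in 12 of 152 sets of 4 values (the members and the marker means in each group); chance gives about 1 in 20. Among called genes these were Robo3 in wild-type mouse 42 (5.34, next 4.47), Epha8 in R6/2 mouse 70 (4.80, next 5.06) and Plxna2 in wild-type mouse 54 (9.39, next 9.20). Among the others, wild-type mouse 63 was high for Efna4 (4.49) and wild-type mouse 54 for Plxnc1 (7.97). R6/2 mouse 64 was high for Ephb6 (8.45) and Sema5b (5.76). R6/2 mouse 70 was low for Efnb1 (6.02) and high for Sema3b (4.78), R6/2 mouse 65 was low for Sema4b (5.49), and R6/2 mouse 78 was high for Epha1 (4.66) and Efna4 (4.19). In Epha1, Sema3b and Efna4 the 3 other R6/2 values were identical, so the gap filled the whole range.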

How the results depend on the processing

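Of the 17 calls, 9 held whichever array was left out and 2 (Sema7a and Plxnd1) in every setting; no call changed direction. With array weights, median centring, quantile normalization, a filter on dim genes, trend with robust moderation, the ependymal covariate or other probe set choices, 15 to 17 guidance genes were called. Of these, 14 to 17 were among the 17 calls. The mean of probe sets lost Sema3d, Sema4d and Sema6d and added Plxna3. The filter on dim genes left Epha8, Robo3 and Sema3d untested and added Robo1 and Unc5b. Array weights added Sema4c, and the ependymal covariate added Unc5b. With no moderation 1 rose and 6 fell (1399 of all genes called, 819 higher and 580 lower, and 5 of the guidance probe sets). With the cortical covariate 2 rose and 3 fell (1039 of all genes, 632 higher and 407 lower, and 3 of the guidance probe sets). The guidance probe sets called were 29, or 17 with the ependymal covariate. With the mean of all probe sets 7 effectors and 1 partner were called higher. Leaving out 1 array gave 2 to 5 rises and 7 to 12 falls of guidance genes, with 2 rises without wild-type mouse 48, 3 without R6/2 mouse 64, 65 or 78, and 7 falls without R6/2 mouse 70, and 13 to 21 guidance probe sets. Over all genes it gave 1679 (without R6/2 mouse 70) to 2545 calls, with 1698 without wild-type mouse 48 (921 to 1579 higher, 755 to 1122 lower). Partners and effectors gave 13 to 25 calls, with 5 to 11 effectors higher and 4 to 8 lower, and 1 to 2 partners higher and 3 to 6 lower.

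Signs turned only in named members that did not pass. With the mean of probe sets these were Efna5 (0.043), Epha4 (-0.11) and Epha7 (-0.090). Sema3f was -0.066 without shared probe sets (IDs ending in _s_at or _x_at), and Epha7 was -0.020 after quantile normalization. With array weights Efna5 was 0.0040, Epha7 -0.0091 and Robo2 -0.058. With the cortical covariate Efna5 was 0.12, Epha4 -0.0094, Epha7 -0.030, Ephb6 0.065, Ntn1 -0.14, Ntn4 0.097, Robo2 -0.28, Sema3f -0.0080 and Sema4f 0.030, and with the ependymal covariate Efna5 was 0.028. On leaving out 1 array at a time, Efna5 ranged from -0.087 to 0.037, Epha7 from -0.039 to 0.062, Nrp1 from -0.16 to 0.042 and Robo2 from -0.15 to 0.11, and Ephb1 reached 0.0015 without wild-type mouse 42. The cause was not tested. No paired analysis was possible because the groups share no mouse numbers.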
